A study of Homo sapiens with 24 samples.

Results

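The liver's plasma protein genes HP, HPX, ORM1, ORM2, LBP, SERPINA3, CP, AHSG, PLA2G2A and HAMP were followed across all 8 treatment groups of an RNA-seq series in HepG2 cells. The members were the rows with those symbols in the deposited gene counts, 10 of 26475 symbols. HepG2 is an established human cell line from a hepatocellular carcinoma that keeps much of the secretory programme of the hepatocyte. Each group had 3 libraries. Cells received the solvent DMSO, the inhibitor ABBV-075 (50 nM) or the inhibitor ABBV-744 (50 nM or 500 nM), and a matching set of 4 groups received IFNγ alone or together with one of those inhibitor treatments. The study's methods give 24 h for DMSO and 12 h for ABBV-075, so treatment time and inhibitor cannot be told apart in that comparison. The times of the other groups and the dose of IFNγ are not given in the sources used here. The methods call the DMSO and ABBV-075 libraries triplicates and independent, without saying what was made separately, and the labels say nothing of separate cultures, so the p-values measure the spread between these libraries, which may be technical.

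Acute-phase proteins are plasma proteins whose secretion by the liver changes during inflammation, mainly under interleukin 6 acting through STAT3 and interleukin 1 acting through NF-kB and C/EBP factors. Carrier proteins bind and transport small ligands such as heme, metals, lipids and drugs in plasma. BET proteins are readers of acetylated histones that help RNA polymerase II to leave the promoter. ABBV-075 binds both of their bromodomains, whereas ABBV-744 is selective for the second bromodomain. IFNγ is a cytokine of lymphocytes that signals through JAK kinases.

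The 24 libraries held 23037861 to 28925049 reads each, of which 2978982 to 4304103 lay on genes on the gene's own strand, and 56% to 69.4% aligned to several places and were not counted. Levels are given as CPM, that is counts scaled to the library's total on genes, with TMM normalization factors, and a change was called at an adjusted p of at most 0.05 in edgeR's quasi-likelihood test over all genes. Genes known to respond to the agents were checked first. HEXIM1, a gene that BET inhibitors raise, rose by 1.41 on the log2 scale with ABBV-075 and by 0.74 with ABBV-744 at 500 nM, while at 50 nM of ABBV-744 its value of 0.29 did not pass (adjusted p = 0.0816), and the IFNγ target genes IRF1 and PSMB9 rose by 4.26 and 4.49 with IFNγ. All 10 hepatocyte markers examined were detected, with a summed level of 19642 to 26981 CPM in every library. The leukocyte genes PTPRC, CD3E and CD163 had no read in any library, 4 of 6 fibroblast or stellate markers had none, and the endothelial markers summed to at most 2.14 CPM. The other 3 of the 6 leukocyte genes (LYZ, CD68 and CD14) had reads. LYZ, which encodes lysozyme, had group means of 1188 to 1853 CPM and fell by 0.54 on the log2 scale with ABBV-075. CD68, a lysosomal protein of macrophages, fell by 0.81 with ABBV-075 and by 1.11, 1.27 and 1.18 when ABBV-075, ABBV-744 at 50 nM or ABBV-744 at 500 nM was added to IFNγ. CD14, a lipopolysaccharide co-receptor with 1 to 22 reads per library, fell by 2.30 and 2.47 in the first and second of those IFNγ comparisons. It passed the filter on low counts through the IFNγ libraries (4.1 CPM, against 0.805 and 0.695), so the filter favours a fall. The only fibroblast marker with more than a few reads, PDGFRB, had group means of 1.52 to 6.7 CPM and fell by 1.96 with ABBV-075. It passed that filter through the DMSO libraries (6.7 CPM, against 1.74 with ABBV-075), where the same limit holds. The part of other cells in the results was not tested. In bulk RNA, fewer cells that make a transcript and less of it per cell cannot be told apart. Fold changes over all genes also followed the GC content of the transcript in several comparisons. Their Spearman correlation with GC content, over genes that are not independent replicates, was -0.34 for ABBV-075 against DMSO, 0.59 for ABBV-744 at 50 nM against DMSO, and -0.68 for ABBV-744 at 50 nM with IFNγ against IFNγ. A second fit corrected each library for this trend, and its values stand below wherever they make or end a call, and where they turn or move a called value by more than 1.5 times. The part of GC content in the results was not tested beyond that correction.

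Of the 10 genes, 9 had enough counts to be tested. LBP, which encodes the protein that hands bacterial lipopolysaccharide to immune receptors (chr20:38346482-38377013, GRCh38), had 2 reads in 1 DMSO library and 0 in the other 23 libraries, where a count of 0 allows up to 3 reads. It passed no filter on low counts and was not tested. HAMP had 2 to 20 reads per library and entered 9 of the 14 fits, in each case because of the groups without IFNγ. The other 8 genes entered all 14. Set per kilobase of the canonical transcript, the DMSO level was 1263 CPM for AHSG, 743 for SERPINA3, 287 for ORM1, 189 for ORM2 and 158 for HP. It was far lower for HPX at 11.7, PLA2G2A at 11.4, HAMP at 11.4 and CP at 7.65. Together the members took 0.395% ± 0.00345 (SD, n = 3) of the reads on genes in DMSO and 0.23% ± 0.0401 with ABBV-075, while it was 0.399% ± 0.00934 with ABBV-744 at 50 nM. AHSG alone supplied 51.9% of the members' reads in DMSO.

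**Figure D1:**
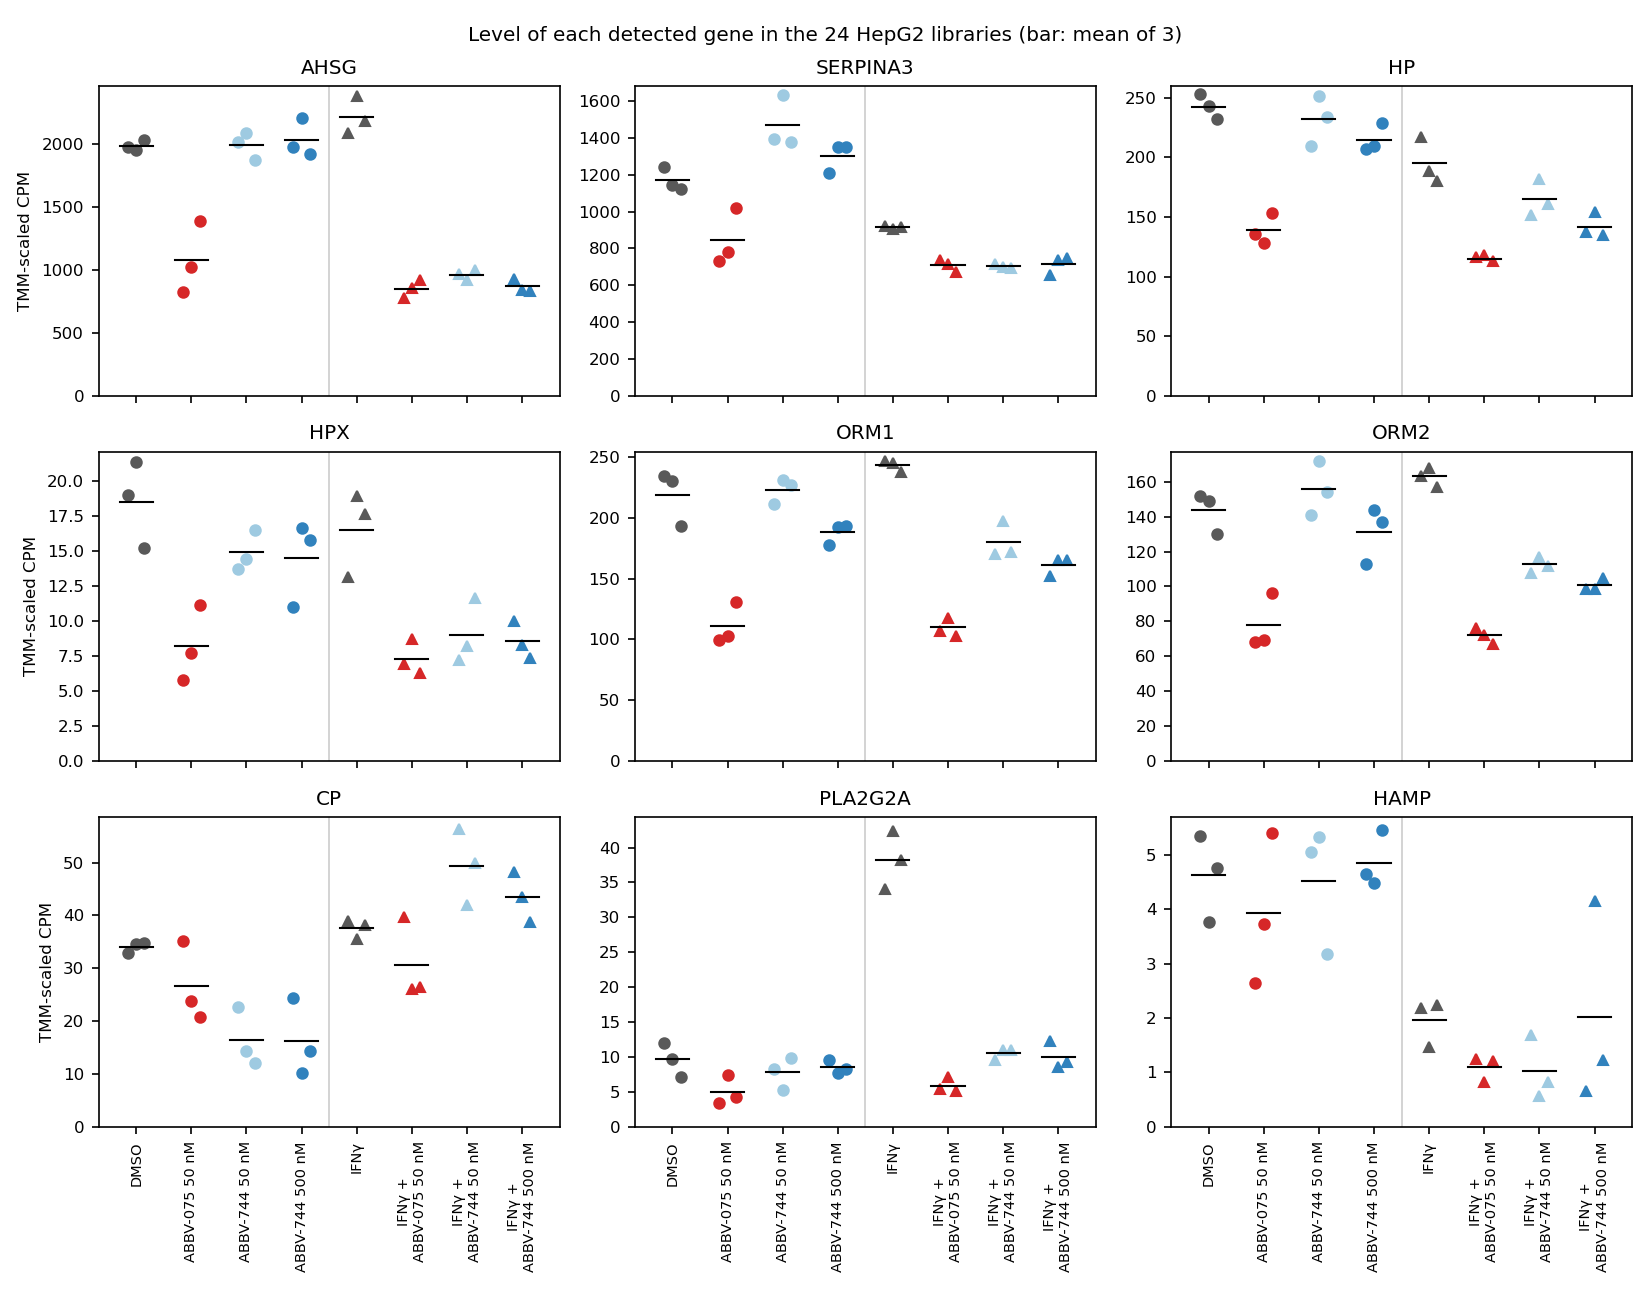
TMM-scaled CPM of the 9 tested genes in each of the 24 libraries (points; circles without and triangles with IFNγ) with the mean of 3 libraries as a bar, on linear axes that start at 0. PLA2G2A stood at 34 to 42.4 CPM with IFNγ alone and at 12.3 or below in every other group, and HAMP lay at 2.23 CPM or below with IFNγ except in 1 library at 4.15.

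The first question was what the pan-BET inhibitor did to these genes on its own. With ABBV-075 at 50 nM, 7 of the 9 genes tested fell, none rose, and the median log2 fold change was -0.90 against 0.026 over all genes tested. Over all genes, 19.6% were called lower in this comparison. CP and HAMP did not pass the test. No member reached the study's stricter threshold of an absolute log2 fold change of 1.5, which 4.28% of genes passed in either direction.

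Both scavengers of hemoglobin and heme fell, from very different levels. HP encodes haptoglobin, which binds free hemoglobin (chr16:72054505-72061055). It stood at 253, 243 and 232 CPM in the 3 DMSO libraries and at 136, 128 and 153 with ABBV-075. The groups did not overlap, and the log2 fold change was -0.82 ± 0.11 (SE; adjusted p = 0.000224). HPX encodes hemopexin, the carrier of free heme (chr11:6431049-6442617). Its level was 19, 21.3 and 15.2 CPM in DMSO and 5.78, 7.74 and 11.1 with ABBV-075, again without overlap. HPX fell by 1.21 ± 0.25 on the log2 scale (adjusted p = 0.00254), the largest fall among the members in this comparison. HP shares 30.2% of its 50-base transcript windows with its neighbouring copy HPR, so part of its reads may have been left out as multiply aligned and its level is uncertain.

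ORM1 and ORM2 are adjacent genes on chromosome 9 (chr9:114323098-114326479 and chr9:114329869-114333251) for orosomucoid, or alpha-1-acid glycoprotein, which carries basic drugs and steroids. ORM1 stood at 234, 230 and 193 CPM in DMSO and at 99.5, 103 and 131 with ABBV-075. ORM2 stood at 152, 149 and 130 CPM in DMSO and at 68.2, 69.4 and 96.4 with ABBV-075. Neither gene overlapped between the groups. ORM1 was 2-fold lower (95% interval of the log2 fold change -1.30 to -0.70, adjusted p = 0.000209), and ORM2 had a log2 fold change of -0.90 ± 0.15 (adjusted p = 0.00071). The transcripts share 49.8% of ORM1's and 50.1% of ORM2's 50-base windows, so reads could be lost from both or exchanged between them, and the 2 values are not independent.

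AHSG encodes fetuin-A, an abundant carrier that keeps calcium phosphate in solution and is known to fall in plasma during inflammation (chr3:186613060-186621318). It was the most abundant member, at 1979, 1954 and 2031 CPM in DMSO and 822, 1023 and 1391 with ABBV-075. The groups did not overlap, but the ABBV-075 libraries were widely spread, and replicate 3 of that group held the highest value for 7 of the 9 tested members. AHSG fell by 0.90 ± 0.17 on the log2 scale (adjusted p = 0.00126). Its promoter is shown because AHSG changed with every inhibitor once IFNγ was present (below). The 250 bases before its RefSeq start (GRCh38.p14, chr3:186612810-186613059, plus strand, 5′ to 3′) hold the letters of an HNF4 motif (minus strand, 179 to 171 bases before the start) and of a C/EBP motif (59 to 52 before it), in capitals:
AHSG: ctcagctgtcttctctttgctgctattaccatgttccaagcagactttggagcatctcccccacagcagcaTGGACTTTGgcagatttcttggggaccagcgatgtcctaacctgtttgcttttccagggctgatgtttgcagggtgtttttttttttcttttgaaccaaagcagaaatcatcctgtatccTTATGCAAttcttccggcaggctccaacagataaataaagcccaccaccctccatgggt
Of 35116 RefSeq promoter windows of 300 bases (250 before to 50 after the start), 0.384% held CAAAGTCCA on either strand, the HNF4 letters searched, and 10.5% held TTNNGCAA, the C/EBP letters. A match is a description of the sequence and not a site that was measured.

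SERPINA3 encodes alpha-1-antichymotrypsin, an inhibitor of neutrophil cathepsin G and mast cell chymase (chr14:94612384-94624055). It stood at 1245, 1144 and 1124 CPM in DMSO and at 733, 780 and 1019 with ABBV-075, without overlap. The fall was the smallest of those called, -0.49 ± 0.14 on the log2 scale (adjusted p = 0.0123). It lost the call without replicate 1 of DMSO (adjusted p = 0.0645) or without replicate 2 of ABBV-075 (adjusted p = 0.0701).

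PLA2G2A encodes the secreted group IIA phospholipase A2, which attacks bacterial membranes and is induced in inflammation (chr1:19975431-19980416). It stood at 12, 9.75 and 7.14 CPM in DMSO and at 3.37, 7.45 and 4.2 with ABBV-075, and the groups overlapped, since replicate 2 of ABBV-075 lay above replicate 3 of DMSO. The log2 fold change of -0.97 ± 0.32 passed with an adjusted p of 0.027. The call was lost without replicate 1 of DMSO (adjusted p = 0.114), without replicate 2 of DMSO (adjusted p = 0.0734), without replicate 1 of ABBV-075 (adjusted p = 0.0821) and in DESeq2 (adjusted p = 0.0632).

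CP encodes ceruloplasmin, the copper-binding ferroxidase of plasma (chr3:149162410-149221829). It stood at 32.9, 34.6 and 34.7 CPM in DMSO and at 35.2, 23.8 and 20.7 with ABBV-075. Replicate 1 of ABBV-075 lay above all DMSO libraries and the other two below them. The log2 fold change of -0.37 ± 0.19 did not pass (adjusted p = 0.132, 95% interval -0.78 to 0.03), but it was -0.71 after GC correction (adjusted p = 0.000606) and -0.63 without replicate 1 of ABBV-075 (adjusted p = 0.00741). CP has the most AT-rich transcript of the set, with 39.4% GC against 49.7% to 57.4% in the other members. HAMP, at 5.35, 3.77 and 4.76 CPM in DMSO and 2.65, 3.73 and 5.4 with ABBV-075, overlapped between the groups (log2 fold change -0.27, 95% interval -0.98 to 0.43).

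**Figure D2:**
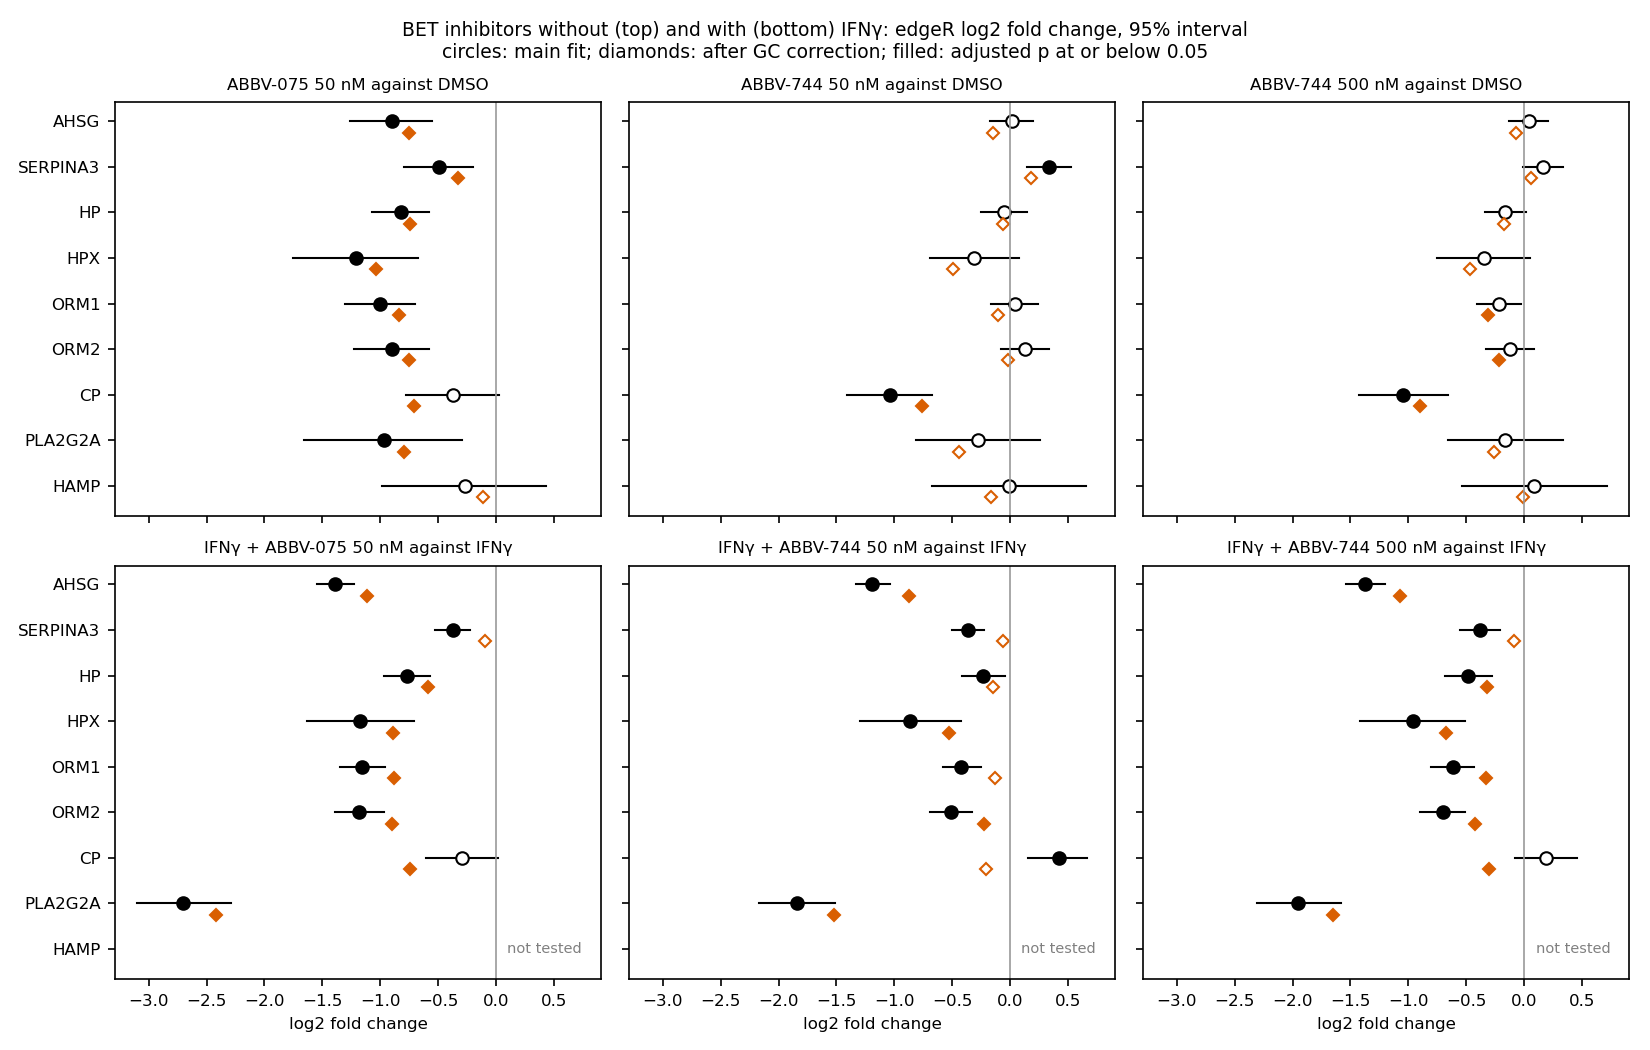
Log2 fold change of each member (circles, with the 95% interval as a line) for the 3 inhibitor treatments against DMSO in the upper row and against IFNγ in the lower row, with GC-corrected values as diamonds. Filled symbols passed an adjusted p of 0.05. For the circles, 7 of 9 members did with ABBV-075 alone, and 2 and 1 with ABBV-744 alone at 50 nM and 500 nM. In the presence of IFNγ, 7, 8 and 7 of 8 did. Over all genes that fit called 4424 of 11244, 2102 of 11116 and 1700 of 11124 without IFNγ. With IFNγ it called 6331 of 11187, 5766 of 11150 and 5070 of 11091. For the diamonds, 8, 1 and 3 members passed without IFNγ and 7, 4 and 7 with it.

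With ABBV-744 alone few of these genes were called, near the shares over all genes. At 50 nM, 1 of 9 fell (CP) where 10.1% of all genes were called lower, and 1 rose (SERPINA3) where 8.81% were called higher. At 500 nM, 1 of 9 fell (CP), with 7.8% of all genes called lower, and none rose. In either direction, 1700 of 11124 genes were called at that dose. At both doses no member passed the study's stricter threshold. CP was at 22.6, 14.4 and 12 CPM with 50 nM and at 24.4, 10.2 and 14.4 with 500 nM, all below the DMSO libraries. Its log2 fold change was -1.04 ± 0.18 (adjusted p = 0.000333) at 50 nM and -1.05 ± 0.19 (adjusted p = 0.000278) at 500 nM. SERPINA3 was at 1395, 1634 and 1377 CPM with 50 nM, above every DMSO library. Its log2 fold change of 0.34 ± 0.09 (adjusted p = 0.0134) did not pass after GC correction (0.18, adjusted p = 0.0812), without replicate 2 of DMSO (adjusted p = 0.0941) or without replicate 3 of DMSO (adjusted p = 0.0976). For the genes that fell with ABBV-075, the intervals with ABBV-744 at 50 nM were narrow around 0 only where the counts were high. They ran from -0.17 to 0.20 for AHSG, from -0.25 to 0.15 for HP and from -0.16 to 0.24 for ORM1, but from -0.69 to 0.08 for HPX and from -0.81 to 0.26 for PLA2G2A. At 500 nM, ORM1 had a log2 fold change of -0.22 that did not pass (adjusted p = 0.115), and after GC correction ORM1 at -0.31 (adjusted p = 0.00287) and ORM2 at -0.22 (adjusted p = 0.0498) did.

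The next comparison asked what IFNγ alone did. It raised PLA2G2A and lowered SERPINA3 and HP, 1 gene higher and 2 lower of 9 tested, where 2.76% of all genes were called higher and 0.695% lower. The PLA2G2A libraries with IFNγ held 34, 42.4 and 38.2 CPM, all far above the DMSO values given before. The log2 fold change was 1.99 ± 0.17 (adjusted p = 1.3e-11), which is 3.97-fold, and it stayed between 1.81 and 2.16 when any 1 library was left out. PLA2G2A was thus 1 of the 0.82% of genes that rose past the stricter threshold. Its promoter window of 250 bases before the start (GRCh38.p14, chr1:19979619-19979868, minus strand, printed 5′ to 3′ on the gene's strand) is the one of its 3 windows in the table that matches the canonical transcript, and is shown since this gene had the widest range of levels:
PLA2G2A: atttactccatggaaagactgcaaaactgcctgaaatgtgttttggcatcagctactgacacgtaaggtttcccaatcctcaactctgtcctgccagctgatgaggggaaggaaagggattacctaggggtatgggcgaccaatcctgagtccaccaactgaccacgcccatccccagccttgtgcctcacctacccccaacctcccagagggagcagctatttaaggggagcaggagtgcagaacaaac
None of the motifs given here (TTCNNNGAA for STAT factors, TTNNGCAA, CAAAGTCCA, GGGNNTTCC for NF-kB and GGCGCC for the SMAD proteins of the BMP pathway) was in the PLA2G2A window on either strand. The RefSeq table gave windows for HPX, ORM1, SERPINA3, AHSG, PLA2G2A and HAMP, and not for HP, ORM2, LBP and CP.

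SERPINA3 stood at 922, 904 and 919 CPM with IFNγ, below all DMSO libraries, with a log2 fold change of -0.36 ± 0.06 (adjusted p = 0.00014). HP stood at 217, 189 and 180 CPM with IFNγ, also below DMSO, with a log2 fold change of -0.31 ± 0.08 (adjusted p = 0.0164). The HP call was lost without replicate 1 or 2 of DMSO (adjusted p = 0.0848 and 0.072) and without replicate 2 or 3 of IFNγ (adjusted p = 0.12 and 0.126). AHSG, ORM1 and ORM2 had small positive values of 0.16, 0.15 and 0.18 that did not pass.

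HAMP encodes hepcidin, the hormone that binds the iron exporter ferroportin and so limits the entry of iron into plasma (chr19:35280716-35285143). Its reads were few and its difference with IFNγ did not pass the test. The raw counts were 20, 17 and 20 in DMSO and 8, 5 and 8 with IFNγ, without overlap, and the log2 fold change was -1.21 ± 0.38 (adjusted p = 0.0723). The adjusted p was 0.0402 after GC correction and 0.0465 with scaling by library size only. HAMP passed the filter on low counts through the DMSO libraries, where it is highest, so the filter favours a fall and these values are given as a description. In the arms with inhibitors the counts were 11, 13 and 18 with ABBV-075 and 5, 3 and 4 with IFNγ added to it. They were 17, 17 and 10 with ABBV-744 at 50 nM and 7, 2 and 3 with IFNγ added. At 500 nM they were 16, 14 and 19 without and 2, 14 and 4 with IFNγ. The library with 14 was at 4.15 CPM, just below the lowest of its arm without IFNγ at 4.48.

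The HAMP promoter is shown for the letters it holds for both inputs known to drive hepcidin. In the 250 bases before the start (GRCh38.p14, chr19:35282278-35282527, plus strand, 5′ to 3′), the capitals mark first GGCGCC, 105 to 100 bases before the start, and then TTCNNNGAA, 93 to 85 bases before it:
HAMP: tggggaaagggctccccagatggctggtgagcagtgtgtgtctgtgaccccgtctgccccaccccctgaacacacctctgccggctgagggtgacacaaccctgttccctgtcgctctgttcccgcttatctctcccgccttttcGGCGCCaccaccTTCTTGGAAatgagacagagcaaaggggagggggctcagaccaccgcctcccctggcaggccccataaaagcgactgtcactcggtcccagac
Of all promoter windows, 19.2% held GGCGCC and 7.66% held TTCNNNGAA. HPX held a C/EBP match 203 to 196 bases before its start, and neither ORM1 nor SERPINA3 held any of these motifs.

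With IFNγ present, all 3 inhibitor treatments lowered the same 7 genes by name: HP, HPX, ORM1, ORM2, SERPINA3, AHSG and PLA2G2A. HAMP was not tested there, because its counts were too low, which leaves 8 genes. These 3 comparisons share the IFNγ libraries, so their results are not independent of each other. Of all genes, 28.4% were called lower with ABBV-075, 24.3% with ABBV-744 at 50 nM and 22.8% at 500 nM. The median of the members was -1.17, -0.46 and -0.66 on the log2 scale, against -0.003, -0.017 and -0.030 over all genes. After GC correction the medians were -0.89, -0.21 and -0.38, and ABBV-744 at 50 nM kept 4 calls of 8. The shares of all genes given above are from the fit without that correction, so they are no background for these 4 calls.

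PLA2G2A lost most of its level under IFNγ with any of the inhibitors. It stood at 5.46, 7.06 and 5.11 CPM with ABBV-075, at 9.62, 11 and 11 with ABBV-744 at 50 nM, and at 12.3, 8.59 and 9.21 at 500 nM, far below the 3 IFNγ libraries. The log2 fold changes were -2.70 ± 0.20 (adjusted p = 3.06e-14), -1.84 ± 0.16 (adjusted p = 3.34e-11) and -1.95 ± 0.18 (adjusted p = 2.41e-10), or 6.49-, 3.57- and 3.86-fold lower. It was the only member past the stricter threshold in each, where 3.75%, 0.368% and 0.82% of all genes were lower past it. The means with ABBV-744, 10.6 and 10 CPM, lay beside the DMSO mean of 9.64 ± 2.45 (SD, n = 3) with overlapping ranges, while the mean with ABBV-075 was 5.88 ± 1.04.

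AHSG showed the same direction with all 3 treatments at much higher counts. It stood at 2090, 2383 and 2187 CPM with IFNγ, at 776, 855 and 921 when ABBV-075 was added, at 970, 918 and 997 with ABBV-744 at 50 nM, and at 930, 843 and 836 at 500 nM. No treated library came near the IFNγ group. The log2 fold changes were -1.39 ± 0.08 (adjusted p = 3.37e-17), -1.19 ± 0.07 (adjusted p = 6.32e-15) and -1.37 ± 0.08 (adjusted p = 5.29e-14). After GC correction they were -1.11, -0.87 and -1.07, and all stayed called.

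The hemoglobin and heme carriers and the orosomucoids had larger fitted falls with ABBV-075 than with ABBV-744, and the direct comparison follows below. HP was at 116, 118 and 113 CPM with ABBV-075 and IFNγ, 152, 182 and 161 with ABBV-744 at 50 nM, and 137, 154 and 135 at 500 nM. Its log2 fold changes against IFNγ were -0.77 ± 0.10 (adjusted p = 2.11e-08), -0.23 ± 0.09 (adjusted p = 0.0379) and -0.48 ± 0.10 (adjusted p = 0.000188), the last of them -0.32 after GC correction (adjusted p = 0.00185). The HP value at 50 nM did not pass after GC correction (-0.15, adjusted p = 0.142), in DESeq2 (adjusted p = 0.0759), or without replicate 1 (adjusted p = 0.216) or 2 (adjusted p = 0.0689) of IFNγ, or replicate 1 (adjusted p = 0.128) or 3 (adjusted p = 0.061) of ABBV-744 with IFNγ. HPX fell by 1.17, 0.86 and 0.96 on the log2 scale, and its 3 treated groups held 6.32 to 11.6 CPM against 13.1 to 18.9 with IFNγ. After GC correction HPX was at -0.53 with ABBV-744 at 50 nM (adjusted p = 0.0472).

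ORM1 was at 247, 245 and 238 CPM with IFNγ and at 107, 118 and 103 with ABBV-075 added. With ABBV-744 it was at 170, 197 and 172 CPM at 50 nM and at 152, 165 and 165 at 500 nM, between these groups. The log2 fold changes were -1.16 ± 0.09 (adjusted p = 5.26e-13), -0.42 ± 0.08 (adjusted p = 8.65e-05) and -0.61 ± 0.09 (adjusted p = 1.69e-06). ORM2 gave -1.18, -0.51 and -0.70. After GC correction the ABBV-744 values of ORM1 were -0.13 (adjusted p = 0.157) at 50 nM and -0.33 at 500 nM, and those of ORM2 were -0.22 (adjusted p = 0.0212) and -0.42. SERPINA3 fell by 0.37, 0.36 and 0.38 on the log2 scale in the 3 comparisons, with 653 to 747 CPM in the treated libraries against 904 to 922 with IFNγ. After GC correction these were -0.09, -0.06 and -0.09, and none passed (adjusted p = 0.235, 0.45 and 0.301).

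CP was the member whose direction depended most on the treatment and on the correction. It stood at 38.9, 35.6 and 38.2 CPM with IFNγ, at 56.3, 42 and 49.9 with ABBV-744 at 50 nM added, and at 48.2, 43.5 and 38.7 with 500 nM. At 50 nM it rose by 0.42 ± 0.12 on the log2 scale (adjusted p = 0.00531), where 27.4% of all genes were called higher. The value turned to -0.21 after GC correction (adjusted p = 0.171), and the call was lost in a fit of all 24 libraries (adjusted p = 0.111) and without replicate 1 of ABBV-744 with IFNγ (adjusted p = 0.0919). With ABBV-075 it was at 39.7, 26.1 and 26.5 CPM, a log2 fold change of -0.29 that did not pass (adjusted p = 0.104) but was -0.74 after GC correction (adjusted p = 2.11e-06) and -0.51 without replicate 1 of IFNγ with ABBV-075 (adjusted p = 0.00532). At 500 nM of ABBV-744 the value was 0.19 (adjusted p = 0.245), and -0.30 after GC correction (adjusted p = 0.0423).

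The inhibitors were then set directly against each other at 50 nM. Without IFNγ, 6 of 9 genes were lower with ABBV-075 than with ABBV-744 (HP, HPX, ORM1, ORM2, SERPINA3 and AHSG), where 19.4% of all genes were called lower. The log2 differences were -1.02 ± 0.13 for ORM1 (adjusted p = 0.000773), -1.01 ± 0.16 for ORM2 (adjusted p = 0.00157), -0.90 ± 0.17 for AHSG (adjusted p = 0.00341), -0.81 ± 0.14 for SERPINA3 (adjusted p = 0.00274) and -0.75 ± 0.13 for HP (adjusted p = 0.0021). HPX differed by -0.88 ± 0.26 (adjusted p = 0.0194), a call lost after GC correction (-0.54, adjusted p = 0.0722), without replicate 1 or 2 of ABBV-075 (adjusted p = 0.0694 and 0.0737) and without replicate 3 of ABBV-744 (adjusted p = 0.072). PLA2G2A at -0.67 (95% interval -1.44 to 0.10) and CP at 0.69 (0.10 to 1.29, adjusted p = 0.06) did not pass. CP passed in a fit of all 24 libraries (adjusted p = 0.0167) and was at 0.07 after GC correction. That correction also brought AHSG to -0.59 and SERPINA3 to -0.51, both still called (adjusted p = 0.00143 and 0.00126).

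With IFNγ present, 5 of 8 genes were lower with ABBV-075 than with ABBV-744 at 50 nM, where 17% of all genes were called lower. They were PLA2G2A at -0.79 ± 0.25 (adjusted p = 0.0109), ORM1 at -0.67 ± 0.09 (adjusted p = 2.13e-07), CP at -0.63 ± 0.14 (adjusted p = 0.00039), ORM2 at -0.59 ± 0.10 (adjusted p = 6.14e-06) and HP at -0.47 ± 0.09 (adjusted p = 8.65e-05). DESeq2 did not call PLA2G2A (adjusted p = 0.0806). AHSG and SERPINA3, the most abundant members, were not separated here. Their differences were -0.13 (95% interval -0.29 to 0.03) and 0.07 (-0.09 to 0.22), and that of HPX was -0.24 (-0.74 to 0.27, adjusted p = 0.496). After GC correction AHSG was at -0.24 and passed (adjusted p = 0.00236).

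**Figure D3:**
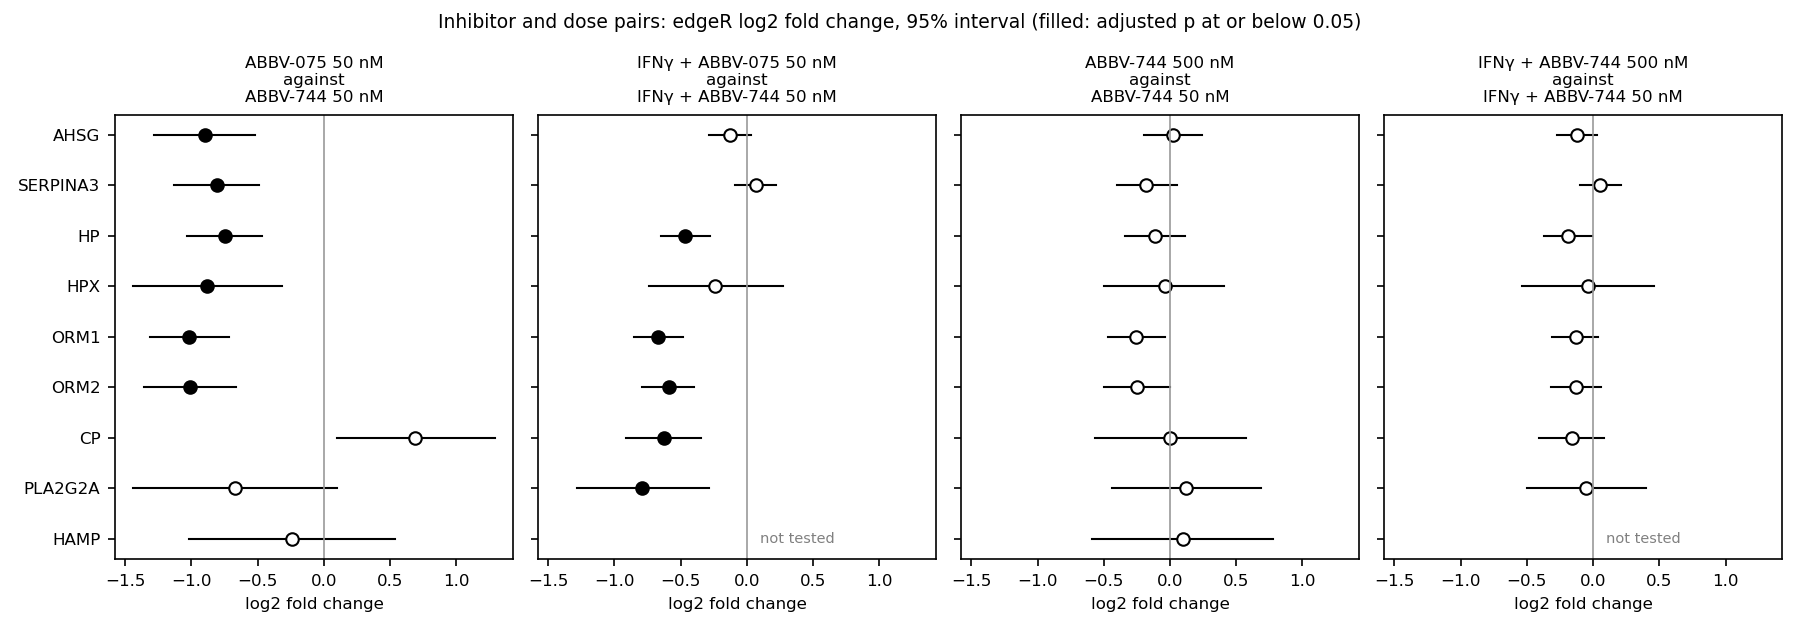
Log2 difference of each member between ABBV-075 and ABBV-744 at 50 nM (left pair of panels) and between the doses of ABBV-744 (right pair), each without and with IFNγ, with 95% intervals and filled circles for an adjusted p of 0.05 or less. ORM1 was lower with ABBV-075 both without IFNγ (-1.02) and with it (-0.67), and no member passed the test between 500 nM and 50 nM.

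Between the doses of ABBV-744 no member passed the test in edgeR. The count was 0 of 9 members between 500 nM and 50 nM without IFNγ, where 0.0274% of all genes were called, and 0 of 8 with IFNγ, where 1.7% were. At an unadjusted p under 0.05 there was 1 member in each (ORM1 without and HP with IFNγ), and DESeq2 called 0 in both. Over all genes, 633 of 10967 had such an unadjusted p in edgeR without IFNγ and 1531 of 11022 with it. ORM1 had a difference of -0.26 without IFNγ (95% interval -0.47 to -0.04), which does not show that the doses act alike. The intervals bound the difference of AHSG to between -0.20 and 0.24 without IFNγ and between -0.27 and 0.03 with it. For HPX they were wider, from -0.50 to 0.41 and from -0.54 to 0.46.

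Whether the effect of an inhibitor itself differed with IFNγ was tested by an interaction term in fits of 12 libraries. For ABBV-075, 0 of 9 members passed in edgeR, where 0.0347% of all genes did. An unadjusted p under 0.05 was found for 2 members (PLA2G2A and AHSG) and for 775 of all 11530 genes. PLA2G2A had an interaction of -1.74 ± 0.38 on the log2 scale that missed the threshold (adjusted p = 0.18), and DESeq2 called it (adjusted p = 0.0389), as did edgeR without replicate 1 of ABBV-075 (adjusted p = 0.00942). Without that library AHSG passed as well (-0.67, adjusted p = 0.0208, against -0.51 with all libraries). For ABBV-744 at 50 nM, 5 of 9 members had a lower and 1 a higher value with IFNγ than without, where 26.5% and 25% of all genes did. At 500 nM the members were the same 6, against 15% and 18.5% of all genes. AHSG had the most negative value after PLA2G2A, -1.23 ± 0.10 at 50 nM (adjusted p = 3.48e-10) and -1.39 ± 0.11 at 500 nM (adjusted p = 4.18e-10), and PLA2G2A had -1.59 ± 0.31 (adjusted p = 0.000106) and -1.77 ± 0.30 (adjusted p = 3.39e-05). In plain levels, ABBV-744 left AHSG at 1878 to 2205 CPM without IFNγ and at 836 to 997 with it, and IFNγ without inhibitor left it at 2090 to 2383. The median over all genes was itself shifted in the interaction at 50 nM, to -0.144, beside a median of -0.67 over the members. After GC correction the members' median was -0.21 at 50 nM and -0.15 at 500 nM, with 3 lower and 1 higher called at 50 nM and 2 lower and 1 higher at 500 nM. The shares of all genes given above are from the fit without that correction, so they are no background for these corrected counts.

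The order of the 8 groups differed from gene to gene, and most neighbours in it overlapped. For AHSG the 4 groups from IFNγ at 2220 CPM to DMSO at 1988 overlapped each with the next, a gap without overlap followed, and the 4 lower groups from ABBV-075 at 1078 to IFNγ with ABBV-075 at 851 again overlapped in turn. For PLA2G2A the only gap between neighbours was between IFNγ at 38.2 CPM and IFNγ with ABBV-744 at 50 nM at 10.6. For ORM1 the gaps lay below IFNγ at 243 CPM, between IFNγ with ABBV-744 at 50 nM (180) and at 500 nM (161), and above ABBV-075 at 111. SERPINA3 was highest with ABBV-744 at 50 nM (1469 CPM) and had its 3 lowest means, 713, 710 and 702, in the groups with IFNγ and an inhibitor. CP had its highest means in IFNγ with ABBV-744 (49.4 and 43.5 CPM) and its lowest in ABBV-744 alone (16.4 and 16.3).

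Likeness of pattern was described by Pearson's r over the 8 group means of log2 CPM, against 11675 other genes that passed the filter over all libraries, for members with a mean of at least 10 CPM. With so few points many genes reach a high r, so these are descriptions only. The gene most like AHSG was GOT1 (r = 0.999), the one most like ORM1 was OAF (0.996), and the one most like ORM2 was TCEA3 (0.997). HPX was most like SERPINH1 (0.995), SERPINA3 most like FNDC4 (0.991), CP most like HMGCS1 (0.989) and HP most like TMEM45B (0.987). PLA2G2A had the weakest best match, NCMAP at 0.946. Among the members themselves, ORM1 and ORM2 had an r of 0.99, while ORM1 and CP had -0.06 and CP and SERPINA3 had -0.79.

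Other plasma protein genes of the liver were set beside the members by list. Of 15 other acute-phase genes, 10 could be tested. The defining acute-phase genes CRP, SAA1 and SAA2 had 0 counted reads in all 24 libraries, where reads aligned to several places were not counted. With ABBV-075, 7 of these 10 fell and none rose (median log2 fold change -0.73), where 19.6% of all genes were called lower and 19.8% higher, led by CPN2 and ITIH4, both at -1.94, of which ITIH4 had only 1 to 35 reads per library. With IFNγ alone, 3 fell and 1 rose, where 0.695% of all genes were called lower and 2.76% higher, and the pair with the largest values were A2M, the broad protease inhibitor alpha-2-macroglobulin, at 0.59 and FGG, the fibrinogen gamma chain, at -0.50. With IFNγ and an inhibitor, 8 fell and 2 rose in each of the 3 comparisons, with ITIH4 at -2.78, -2.42 and -2.13 and CPN2 at -2.29, -1.53 and -1.43. ITIH4, counted in these falls, passed the filter on low counts through the groups without inhibitor, at 7.09 CPM in DMSO and 6.42 with IFNγ. It was at 1.9 CPM with ABBV-075 alone and at 0.929, 1.14 and 1.46 with IFNγ and the inhibitors. The filter thus favours a fall, and the ITIH4 values are given as a description. Of all genes, 28.4% were called lower and 28.2% higher with ABBV-075, 24.3% and 27.4% with ABBV-744 at 50 nM, and 22.8% and 22.9% at 500 nM. The 2 that rose in each, named after their values were seen, were FGB and FGG, which encode fibrinogen chains, at 0.45 and 0.35 with ABBV-075, 1.04 and 0.91 with ABBV-744 at 50 nM, and 0.95 and 0.83 at 500 nM. FGA, which encodes the remaining fibrinogen chain, was among the 8 that fell, so the chains went in opposite directions. Its group mean was 391 CPM with IFNγ and 172, 257 and 251 with the inhibitors added, in the same order.

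Of 14 other carrier genes, 9 were tested with ABBV-075, and 4 fell and none rose (median -0.33), beside 19.6% of all genes called lower and 19.8% higher. SERPINA7, the thyroxine-binding globulin, fell by 1.14 on the log2 scale, and SERPINA6, the cortisol-binding globulin, fell as well (adjusted p = 0.000395). Under ABBV-744 alone, 4 of 9 fell and 1 rose at each dose, led by SERPINA7 at -0.53 and -0.68 and APOH at -0.44 and -0.49. Of all genes, 10.1% were called lower and 8.81% higher at 50 nM. At 500 nM 7.8% were called lower, and 1700 of 11124 genes in either direction. With IFNγ and each of the 3 inhibitor treatments, 7 of 9 fell and 1 rose, beside the same shares of all genes as for the acute-phase list. With IFNγ alone 1 of 10 rose, SERPINA7 at 0.67, where 2.76% of all genes were called higher. The gene that rose with IFNγ and an inhibitor, named after its values were seen, was AFP (alpha-fetoprotein), at 0.21, 0.83 and 0.59. The list values carry no GC correction.

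**Figure D4:**
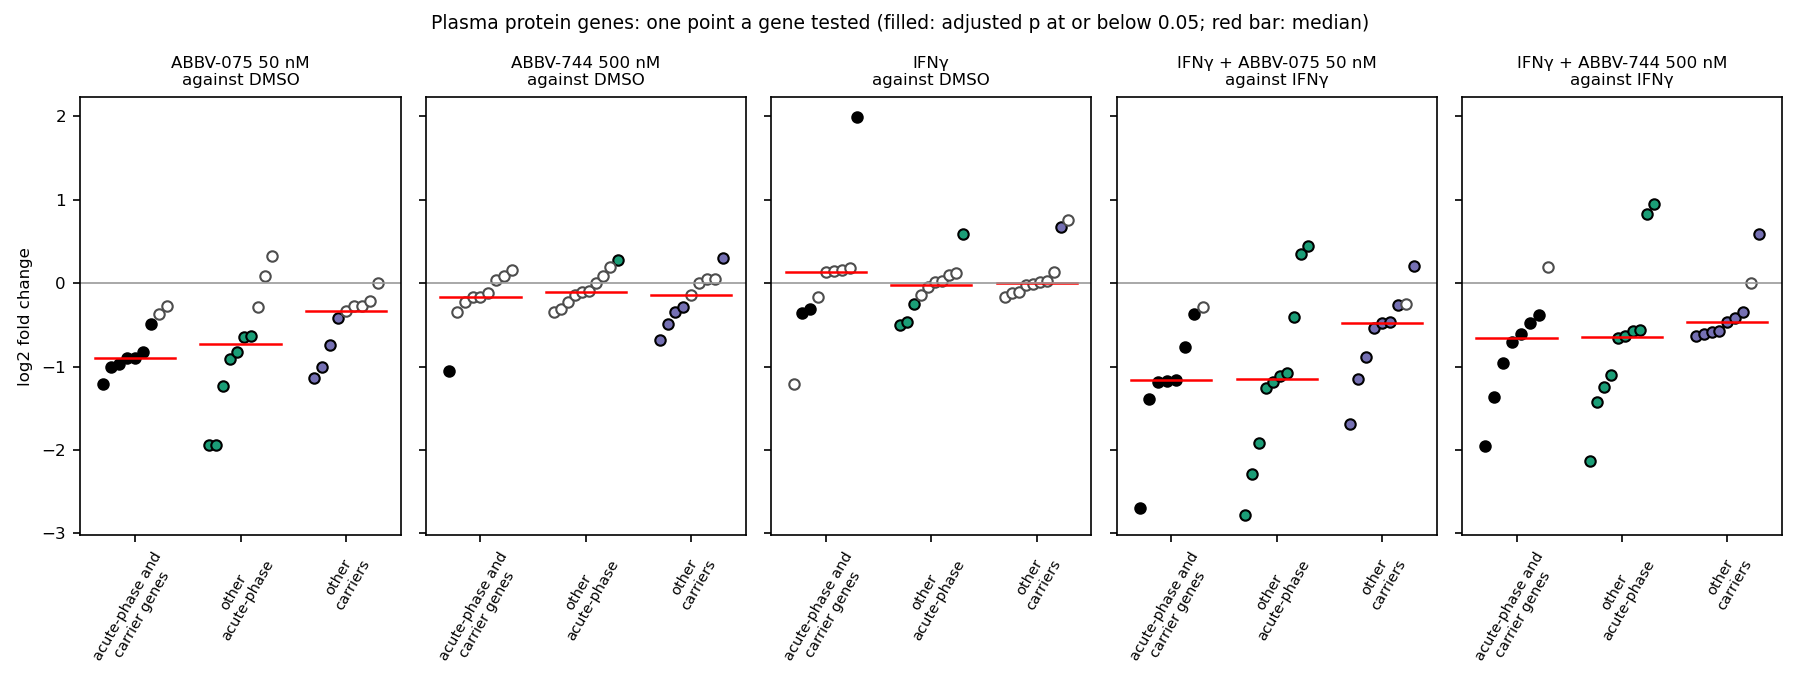
Log2 fold change of each tested gene in the described set (black), 15 other acute-phase genes (green) and 14 other carrier genes (purple) in 5 comparisons, with filled points for an adjusted p of 0.05 or less and red bars for medians. With ABBV-075 the medians were -0.90, -0.73 and -0.33, and with IFNγ alone PLA2G2A stood apart at 1.99.

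Genes that act upstream of the acute-phase proteins moved in both directions. With ABBV-075, 5 of 12 tested signalling genes fell and 2 rose, where 19.6% of all genes were called lower and 19.8% higher, and the largest values were those of IL6R, the interleukin 6 receptor, at -1.33 and of CEBPD, a C/EBP factor, at -0.99. With IFNγ, 3 of 13 rose and 1 fell, where 2.76% of all genes were called higher and 0.695% lower, with STAT3 at 0.70 and CEBPD at 0.54. With IFNγ and ABBV-744, IL6ST, the shared signalling chain of that receptor family, rose by 1.35 at 50 nM and by 1.23 at 500 nM. Its group mean was also higher with ABBV-075 added to IFNγ, at 310 CPM against 142 with IFNγ alone. Without IFNγ, IL6ST fell by 0.73 with ABBV-744 at 50 nM (adjusted p = 0.00177). These IL6ST values carry no GC correction. Fold changes over all genes followed GC content in the same ABBV-744 comparisons. The Spearman correlation was -0.68 at 50 nM and -0.54 at 500 nM with IFNγ, and 0.59 at 50 nM without it. The part of GC content in the IL6ST values was not tested. Among 10 liver transcription factors, 4 fell and 1 rose with ABBV-075, beside the same 19.6% and 19.8%. NR1H4, the bile acid receptor, fell by 3.83 on the log2 scale.

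Of 21 genes of hepcidin control and iron handling, 18 were tested with ABBV-075, and 3 fell and 7 rose, where 19.6% of all genes were called lower and 19.8% higher, led by ID1, a BMP target gene, at 1.10. With IFNγ alone, where HAMP counts were lower, 1 of 18 fell and none rose in edgeR, where 0.695% of all genes were called lower. That gene was SLC40A1, which encodes ferroportin, the target of hepcidin, at -0.46 ± 0.13 (adjusted p = 0.0436). With ABBV-744 alone the ferritin genes FTH1 and FTL rose, by 0.72 and 0.59 at 50 nM and by 0.70 and 0.72 at 500 nM. Both also rose with ABBV-075 alone, by 0.42 (adjusted p = 0.0312) and 0.57 (adjusted p = 0.00516). With IFNγ and ABBV-744 at 500 nM, TMPRSS6, the protease that restrains hepcidin, fell by 1.13 on the log2 scale (adjusted p = 0.02). TMPRSS6 had only 3 to 31 reads per library and was higher with IFNγ alone, so the filter on low counts favours a fall. Its group mean was 4.97 CPM with IFNγ and 2.87 with ABBV-075 added. With ABBV-744 added it was 2.58 CPM at 50 nM and 2.26 at 500 nM.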

How the data were processed

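Total RNA of HepG2 cells was sequenced in 24 libraries, 3 for each of 8 treatments. Per the study's methods and the labels, the authors trimmed reads with Trimmomatic 0.33 and aligned them to hg38 with STAR 2.7.1, while the gene annotation behind the counts is not given in the sources used here. The deposited values are raw counts of reads per gene symbol, not normalized, in the layout of STAR's own gene tables, where multiply aligned reads are set aside. Column 4 (reads on the gene's strand) was used, and column 2 (both strands) was an alternative. Depth was 2978982 to 4304103 counts on genes per library, which limits precision for genes with few reads. Counting limits cover counting error only.

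Each comparison was fitted with edgeR 4.0.16 in R 4.3.3 (filterByExpr, TMM, glmQLFit, glmQLFTest) on the libraries of its groups, with Benjamini-Hochberg adjustment over all genes tested. The study's log2 threshold of 1.5 in either direction was counted beside. Alternatives were DESeq2 1.42.0, other scaling and filters, all libraries in one fit, a replicate block, each library left out, both strands together, and a GC correction per library (lowess, span 0.3, over the longest GENCODE release 44 transcript, matched for 87.5% of symbols and about 93% of genes tested). The members and gene lists were chosen with earlier results of these data known. All 10 members are named, and from each list the 2 genes with the largest change among those called, with label checks and genes acting on a member. Some items that this rule would name are not reported here. Positions are from GENCODE and promoters from RefSeq.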

Additional observations from a re-analysis of the deposited data

Results flagged for a closer look

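The effect of ABBV-744 differed with and without IFNγ for 6 members by the interaction term (edgeR, 12 libraries), which is why these values are given again here. Over all genes the interaction was called lower for 26.5% and higher for 25% at 50 nM, and for 15% and 18.5% at 500 nM. At 50 nM the interaction on the log2 scale was -1.59 for PLA2G2A, -1.23 for AHSG, -0.73 for SERPINA3, -0.67 for ORM2, -0.48 for ORM1 and 1.43 for CP. At 500 nM it was -1.77 for PLA2G2A, -1.39 for AHSG, -0.52 for SERPINA3, -0.56 for ORM2, -0.37 for ORM1 and 1.26 for CP.

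These interactions moved with the GC content of the transcript over all genes, with a Spearman correlation of -0.77 at 50 nM and -0.66 at 500 nM. After GC correction PLA2G2A was at -1.08 and -1.40, AHSG at -0.73 and -1.01 and CP at 0.55 and 0.61, and these stayed called at both doses. SERPINA3 was at -0.25 (adjusted p = 0.0406) and -0.15 (adjusted p = 0.247). ORM2 was at -0.21 at each dose and ORM1 at -0.03 and -0.02, and neither passed. The cause of the GC trend was not tested.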

How the results depend on the processing

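Over the 58 member results called, 943 of 1000 values under the alternatives kept their direction and their call, 55 kept the direction only and 2 were reversed. The 2 were CP with IFNγ and ABBV-744 at 50 nM against IFNγ, at -0.21 with GC correction, with or without the replicate block. The number of members called moved as follows. The shares of all genes under these alternative fits are not given here, so the counts have no background to be read against. For ABBV-744 at 50 nM against DMSO it was 2 and became 1 with GC correction, with or without the block, and ranged from 1 to 2 when single libraries were left out. For 500 nM it was 1 and became 2 with library size only, 3 with GC correction and 2 with GC correction and replicate block. For IFNγ with ABBV-744 at 50 nM against IFNγ it was 8 and became 4 with GC correction, with or without the block. For the interaction of ABBV-744 at 500 nM with IFNγ it was 6 and became 3 in both GC fits. For that of ABBV-075 it was 0 and became 1 in DESeq2, without a filter and with GC correction and replicate block, and it ranged from 0 to 2 when single libraries were left out. The same-numbered replicates share only a number, since their deviations correlated at -0.18 to 0.34 and in 0 of 11 comparisons was every pair above 0.1. The replicate block ended none of the 58 calls, and between the doses of ABBV-744 without IFNγ it moved the count from 0 to 1 (ORM1, adjusted p = 0.0291). It also called CP with IFNγ and ABBV-075 against IFNγ (adjusted p = 0.043) and CP with ABBV-075 against ABBV-744 at 50 nM (adjusted p = 0.0113). ORM1 in the interaction at 500 nM lost its call without replicate 3 of DMSO (adjusted p = 0.139), replicate 3 of ABBV-744 (0.0528) or replicate 1 of IFNγ with ABBV-744 (0.0504). The cause was not tested. Reads were few for LBP and HAMP, which limits what can be detected for them.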
